A study of Homo sapiens with 9 samples.

Results

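Interferon-stimulated genes are the genes that cells switch on after interferon binds its receptor, and they encode most of the proteins with which a cell resists viruses. The 40 genes described here were taken from a list of names, among 19748 protein-coding genes: the ISG15, IFI, IFIT, IFITM, OAS and MX families, the transcription factors STAT2, IRF1, IRF7 and IRF9, the RNA sensors IFIH1 and DHX58, and effectors such as RSAD2 and BST2. All 40 were matched to the annotation. Open chromatin was mapped by ATAC-seq, whose transposase cuts adapters into accessible DNA, in K562, an established cell line of human chronic myeloid leukaemia. There were 3 libraries of the parental wild type, 3 of a line labelled heterozygous for STAG2 R614* and 3 of a line labelled homozygous. STAG2 is a subunit of cohesin, the complex that holds chromatin loops, and R614* is a premature stop. Both mutant lines were made by CRISPR-Cas9 editing. Each genotype was 1 line, and only the homozygous cells are labelled as adherent, so genotype, line and growth form cannot be told apart.

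Type I interferon signals through a receptor made of IFNAR1 and IFNAR2, whose kinases JAK1 and TYK2 activate STAT2. STAT2 joins IRF9 in a complex that binds a DNA element called ISRE, searched for here on either strand as GAAA, any 2 bases and GAAA. Interferon gamma acts through another element, GAS, searched for as TTCNNNGAA. Without interferon, these factors and IRF1 are known to maintain a low basal expression of such genes.

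Each library had its own list of peaks, with 181579 to 319986 intervals, and its read depth is unknown. From each list the 50000 strongest peaks by −log10 p were taken, and a peak is given by its percentile among these, where 100 is the strongest and 0 means that no peak was among them. A peak was linked to a gene when its centre lay in the gene body or within 10 kb, and was a promoter peak when it lay within 1 kb of one of the gene's annotated start sites. Distal peaks lay over 1 kb from every protein-coding start site. A lower percentile in such bulk data can come from fewer cells with an open site or from a less open site in each cell, and these cannot be told apart. A percentile is also a rank within its own list, so it can move when the other peaks of that library differ.

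Several lists were not independent. Wild type replicate 3 and heterozygous replicate 1 shared 46.0% of the shorter list's intervals to the base, and wild type replicates 1 and 2 shared 23.2%, whereas the other 34 pairs shared between 0.223% and 1.17%. Among peaks linked to the interferon-stimulated genes, 11 were identical in wild type replicate 3 and heterozygous replicate 1, of 64 and 65. The labels do not say that replicates came from separate cultures, so p-values measure only the spread between these libraries. As a check of the cell type, TAL1, an erythroid transcription factor, had a promoter peak in 9 of 9 libraries, GFI1B in 8, EPOR in 7 and LMO2 in 5, while GATA1 and KLF1 had linked peaks but 0 promoter peaks among the 50000 strongest. Markers of B cells (PAX5 and MS4A1) and of monocytes (CD14, CSF1R and CD163) also had linked peaks but 0 promoter peaks there. Mean distal percentiles in wild type were 98.0 for PAX5 and 92.9 for CSF1R, against 64.4 for GATA1 and 27.3 for KLF1. MS4A1 had 14.4, and CD14 and CD163 had 0. Linked peaks thus did not set the erythroid genes apart. Other lists were mixed. Of the T cell markers CD247 had a promoter peak in 8 libraries, CD3D in 7 and CD3E in 0, and of the epithelial ones EPCAM in 9, KRT19 in 1 and CDH1 in 0. The fibroblast genes COL1A1 and COL1A2 had one in 9 libraries and PDGFRB in 1.

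An ISRE match lay in the 250 bases upstream of the canonical start of 22 of the 40 genes (55%), against 2.88% of all 19748 protein-coding genes. A GAS match was found at 9 of the 40 (22.5%, against 5.61%), and the AP-1 string TGANTCA at 5 (12.5%, against 4.75%). The stretches below are shown because they hold ISRE matches. Their promoters also separated the homozygous from the wild type libraries or, for SAMD9, had 1 of the 4 highest minimum percentiles over the 9 libraries. They are GRCh37 sequence of the gene's own strand, end before the first annotated exon, and carry the ISRE matches in capitals. The coordinates are chr14:94576911-94577023 on the plus strand for IFI27, chr1:27998724-27998923 on the minus strand for IFI6, chr4:89378070-89378269 on the plus strand for HERC5 and chr7:92747337-92747536 on the minus strand for SAMD9.
IFI27: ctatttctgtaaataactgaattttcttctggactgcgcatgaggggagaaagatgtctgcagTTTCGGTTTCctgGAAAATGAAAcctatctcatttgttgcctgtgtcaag
IFI6: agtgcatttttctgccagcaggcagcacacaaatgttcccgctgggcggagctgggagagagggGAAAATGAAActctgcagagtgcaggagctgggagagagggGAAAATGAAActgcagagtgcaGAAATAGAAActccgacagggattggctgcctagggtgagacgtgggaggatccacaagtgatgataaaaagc
HERC5: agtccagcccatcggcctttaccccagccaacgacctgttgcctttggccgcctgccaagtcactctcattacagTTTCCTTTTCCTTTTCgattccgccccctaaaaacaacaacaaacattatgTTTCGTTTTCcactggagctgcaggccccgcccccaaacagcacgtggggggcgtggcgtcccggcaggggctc
SAMD9: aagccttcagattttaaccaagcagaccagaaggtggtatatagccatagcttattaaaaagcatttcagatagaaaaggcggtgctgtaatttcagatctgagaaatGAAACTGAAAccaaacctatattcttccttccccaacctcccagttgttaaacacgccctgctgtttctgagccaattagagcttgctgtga

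The ISRE letters were frequent in the promoters and near the background share in the distal sites. Among merged peak regions of the 9 libraries, 16 of 32 promoter regions of these genes held an ISRE match in the 500 bp around their midpoint (50%, against 4.32% of 14674 gene-linked promoter regions). Of 68 distal regions, 6 held one (8.82%, against 7.13% of 50475). The AP-1 string was in 25% of the distal regions, against 25.3% of all distal regions. Median GC content was 60.5% in their promoter regions (65.2% in all) and 47.4% in their distal regions (46.4% in all).

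The genes fell into a group with open promoters in every library, a group with a peak in some, and a group with none. A promoter peak was among the 50000 strongest of all 9 libraries for 15 genes (37.5%, against 45.7% of all protein-coding genes), of some libraries for 14, and of none for 11 (27.5%, against 30.3%). The 11 were IFI44L, IFI44, IFITM2, OAS1, OAS2, OASL, XAF1, DHX58, IFI35, MX2 and CXCL10, which include the oligoadenylate synthetases OAS1 and OAS2, whose product activates RNase L, and the chemokine CXCL10. OAS3, a synthetase of the same kind, had a weak promoter peak in 4 libraries, with percentiles of at most 16.0. In the full lists, 25 genes had a promoter peak in all 9 libraries, and OASL and CXCL10 had one in 0.

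The share of these genes with an open promoter was close to that of all genes in wild type and heterozygous cells, and the order of the genotypes depended on the lists used. Of the 40, 56.7% ± 1.44 had a promoter peak among the 50000 strongest of the wild type libraries, 57.5% ± 4.33 of the heterozygous and 52.5% ± 2.5 of the homozygous ones (SD, n = 3 each). Over all protein-coding genes the shares were 57.7% ± 0.367, 58.2% ± 0.179 and 59.3% ± 1.02. The lowest share, 50%, was in homozygous replicate 3, and the ranges of the genotypes touched or overlapped. In the full lists the shares were 77.5% ± 2.5, 75% ± 2.5 and 82.5% ± 6.61 of the 40 genes, and 75.1% ± 1.78, 73.5% ± 1.37 and 75.9% ± 3.52 of all genes (SD, n = 3 each), with the highest, 90%, in homozygous replicate 3.

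**Figure D1:**
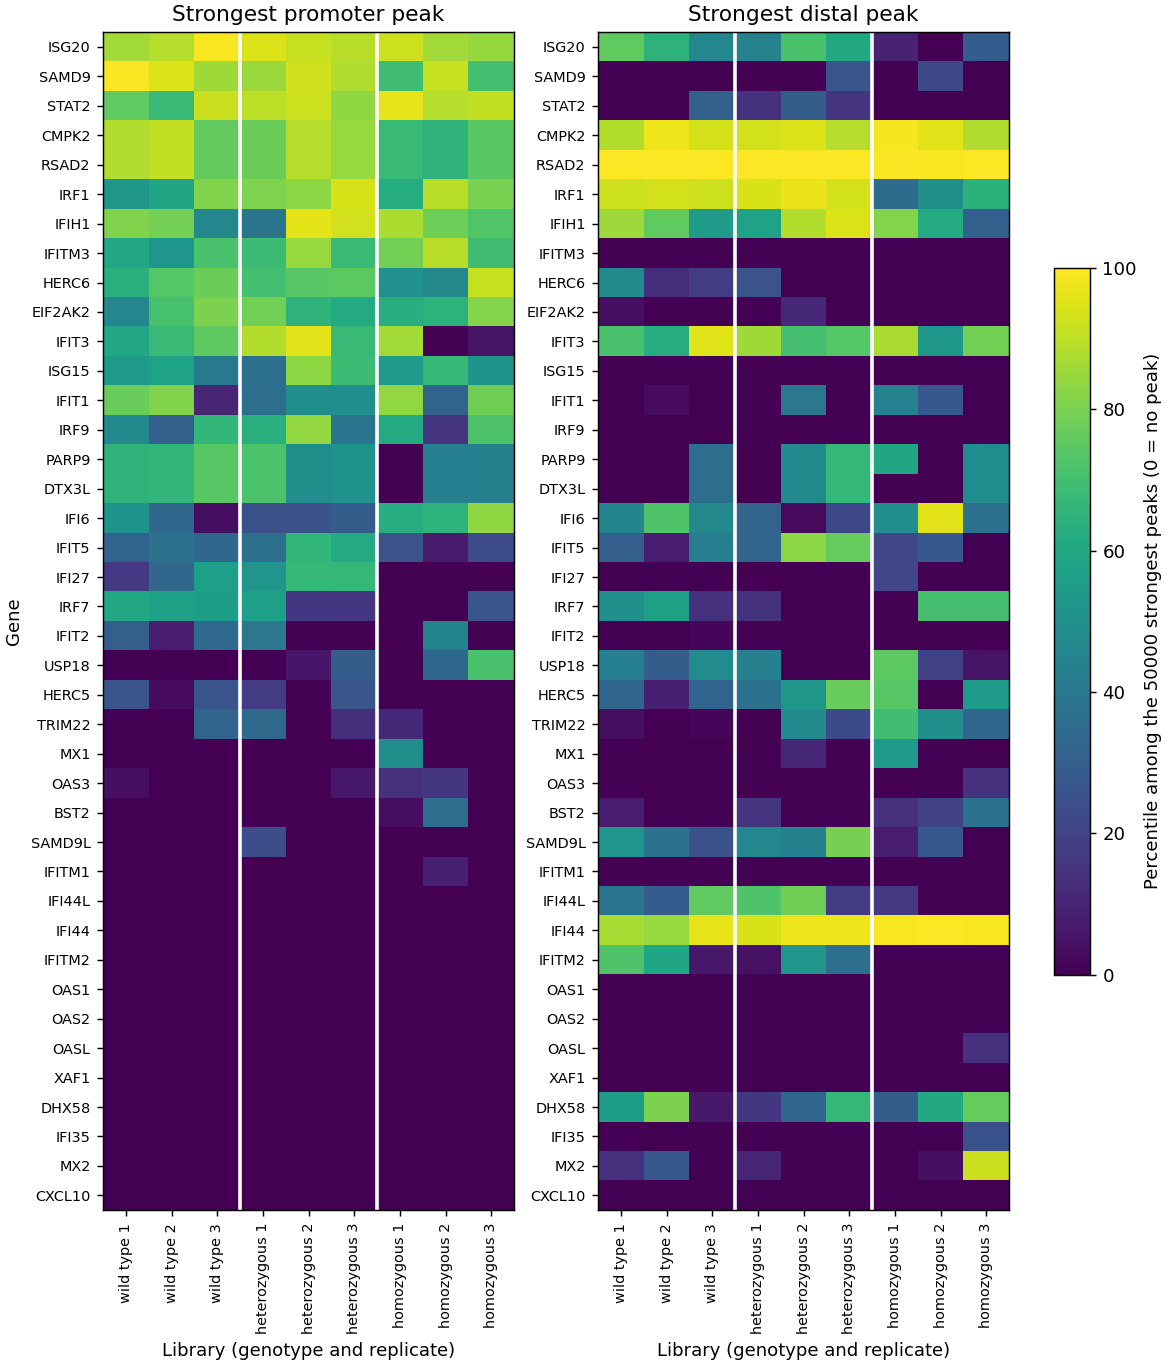
Percentile of the strongest promoter peak (left) and strongest distal peak (right) of each of the 40 genes (rows) in each library (columns, white lines between genotypes), on a colour scale from 0, no peak among the 50000 strongest, to 100. On the left, 15 genes have a peak in all 9 columns and 11 genes have none.

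Ranked by their lowest percentile over the 9 libraries, 4 promoters came first. They belonged to an RNA-degrading enzyme, a growth and antiviral regulator, a signalling factor and a nucleotide-making enzyme pair that shares a promoter. ISG20, an exonuclease that degrades viral RNA, had promoter percentiles of 86.3, 88.8 and 99.1 in wild type, 94.8, 91.3 and 89.4 in heterozygous and 92.4, 86.2 and 84.1 in homozygous replicates 1 to 3. SAMD9, an antiviral regulator of translation, had 99.3, 94.4 and 85.7, then 85.1, 92.6 and 88.1, then 69.1, 91.7 and 70.5 in the same order. STAT2, the subunit that carries the activation domain of the ISRE-binding complex, had 75.7, 67.2 and 91.9, then 90.2, 92.3 and 83.5, then 96.5, 88.7 and 90.7. In these 3 genes the genotypes overlapped, with 1 homozygous SAMD9 library of 3 inside the wild type range. The fourth, the promoter shared by CMPK2 and RSAD2, is described with the separated promoters.

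At the promoters, no gene of the group passed the test across the 3 genotypes. An exact permutation test over the 280 assignments of 9 libraries to genotypes, adjusted by Benjamini-Hochberg over 13755 genes with a promoter peak, called 0 of the 29 tested members and 0% of all genes. Unadjusted, 6 of the 29 had an exact permutation p under 0.05, against 13.6% of all genes: IFIT5 and IFI27 (p = 0.00714), PARP9 and DTX3L (p = 0.0107), IFI6 (p = 0.025) and IRF7 (p = 0.0357). Their smallest adjusted exact permutation p was 0.305. The smallest p that the 280 assignments allow is 0.00357. For 3 libraries against 3 the smallest exact two-sided permutation p is 0.1, so the pairs of genotypes are described by whether the 3 values of one genotype all lay above the 3 of the other.

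Between homozygous and wild type cells, more of these promoters were lower than higher, while over all genes more were higher. The homozygous percentiles all lay below the wild type ones for 8 of 29 genes (27.6%, against a background of 7.95%): IFIT5, IRF7, IFI27, CMPK2, RSAD2, PARP9, DTX3L and HERC5. They all lay above for 2 of 29, IFI6 and USP18 (6.9%, against 14.4%). CMPK2 and RSAD2 share a promoter region, as do PARP9 and DTX3L, so the 8 lower genes are 6 separate sites. The calls depended on the peaks ranked: those of IFIT5, IRF7, IFI27, HERC5 and USP18 were lost with the 20000 strongest, those of IFIT5, CMPK2, RSAD2 and USP18 with the full lists, and those of CMPK2, RSAD2 and USP18 when ranked by fold. With −log10 q of at least 5, IFIT5, IFI27, HERC5 and USP18 did not separate. Against the heterozygous libraries, a comparison that uses the same homozygous values, 6 were lower (background 7.93%) and IFI6 was higher (12.8%). Between heterozygous and wild type cells 0 of 29 were higher (5.1%) and 0 lower (4.18%). That count of 0 rests on wild type replicate 3 and heterozygous replicate 1, the lists with 46.0% of intervals in common: 9 genes separated without the former, 10 without the latter and 17 without both, when 31.1%, 27.1% and 46.8% of all genes did. The median difference in percentile, homozygous minus wild type, was 0 over the 29 genes, with 14 above 0 and 14 below, and 2.41 over all genes tested.

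IFI27, a mitochondrial protein induced strongly by interferon alpha, was the one gene of the 40 whose promoter region was in all wild type and heterozygous full lists and in 0 homozygous ones. The region, chr14:94576785-94577306, covers the canonical start and the ISRE letters shown above. Its percentiles were 17.0, 32.8 and 56.3 in wild type, 52.0, 67.0 and 66.5 in heterozygous and 0, 0 and 0 in homozygous replicates 1 to 3. In the 6 libraries that had the peak the authors' fold enrichment ran from 5.07 to 7.43. The absence is one from a list of called peaks, and how far below a call the signal lay is not known. Chromosome 14 held 2.60% to 2.74% of the 50000 peaks in wild type and 2.22% to 2.32% in homozygous libraries.

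HERC5, the ligase that attaches ISG15 to new proteins, had percentiles of 26.4, 3.08 and 25.9 in wild type and 17.3, 0 and 26.3 in heterozygous replicates. All 3 homozygous libraries were at 0, though 2 of the 3 homozygous full lists held a HERC5 promoter peak. The promoter region, chr4:89377984-89378549, overlapped a peak in 1 homozygous full list. It was weak where present, with fold enrichments of 4.38 to 5.57 in the wild type and heterozygous lists. The −log10 p of wild type replicate 2, 6.44, was that of the weakest peaks used there, so this separation was narrow.

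IRF7, the factor that amplifies the interferon response, had a steady promoter in wild type cells, with percentiles of 59.8, 57.3 and 56.1. Heterozygous replicates had 56.5, 16.1 and 15.8, and homozygous replicates 0, 0 and 26.0. Heterozygous replicate 1, which shares many intervals with wild type replicate 3, was the one at the wild type level, while the other two lay below all wild type libraries. All 9 full lists held the IRF7 promoter peak at chr11:615480-616356.

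PARP9 and DTX3L form a complex that modifies histones and viral proteins in the interferon response, and their genes start back to back. Their shared promoter, chr3:122282886-122283901, had percentiles of 64.9, 66.1 and 74.2 in wild type, 71.6, 49.7 and 51.5 in heterozygous and 0, 43.2 and 44.1 in homozygous replicates. All homozygous values lay below all others. The authors' fold enrichments, 7.14, 7.51 and 8.08 in wild type against 4.12, 5.13 and 6.24 in homozygous lists, did not overlap either.

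CMPK2 makes nucleotides in mitochondria and RSAD2 encodes viperin, which turns one of them into a chain terminator of viral RNA. One region, chr2:7005118-7006991, covers the CMPK2 start and an upstream start annotated for RSAD2. Percentiles were 88.2, 90.9 and 76.1 in wild type, 77.7, 88.8 and 84.5 in heterozygous and 67.4, 64.9 and 74.5 in homozygous replicates. It stayed among the stronger promoters of the group in all 9 libraries, with a narrow gap between the highest homozygous and the lowest wild type value. The authors' fold enrichments overlapped, at 6.59, 6.68 and 5.34 in wild type and 5.44, 5.11 and 6.04 in homozygous lists. At the canonical RSAD2 start, no library had a peak among its 50000 strongest.

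IFIT5, an RNA-binding protein of the IFIT family, had 32.2, 37.5 and 33.4 in wild type replicates. Heterozygous replicates had 36.8, 65.7 and 61.1, and homozygous replicates 25.7, 7.16 and 23.2. The homozygous libraries were the lowest 3 of the 9 by percentile, while the fold enrichment of homozygous replicate 3, 5.17, was above the 5.06 of wild type replicate 1. The region, chr10:91173761-91174801, has its midpoint in an annotated exon of the neighbouring gene LIPA.

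IFI6 and USP18 were the genes on the other side. IFI6, a membrane protein of the endoplasmic reticulum that blocks flavivirus replication, had percentiles of 50.8, 33.3 and 3.82 in wild type, 24.7, 24.9 and 29.3 in heterozygous and 62.2, 64.7 and 83.3 in homozygous replicates, at chr1:27998438-27999271. The homozygous libraries were the highest 3 of the 9. The separation is one of rank within a list: the authors' fold enrichments were 6.37, 5.85 and 4.82 in wild type and 6.16, 5.71 and 8.40 in homozygous lists, which overlap.

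USP18, the protease that removes ISG15 and damps the receptor, had 0, 0 and 0 in wild type, 0, 5.96 and 29.3 in heterozygous and 0.685, 33.9 and 71.4 in homozygous replicates. Its promoter peak was in all 9 full lists. In wild type replicate 3 its −log10 p of 6.41 equalled that of the weakest peaks used, and ties at that value were broken by chromosome order. When all tied peaks were kept, a choice made after seeing the data, USP18 no longer separated the genotypes. Chromosome 22, on which USP18 lies, held 0.956% to 1.09% of the peaks used in wild type and 1.40% to 1.44% in homozygous libraries. With percentiles taken within each chromosome, all 10 genes kept their call.

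**Figure D2:**
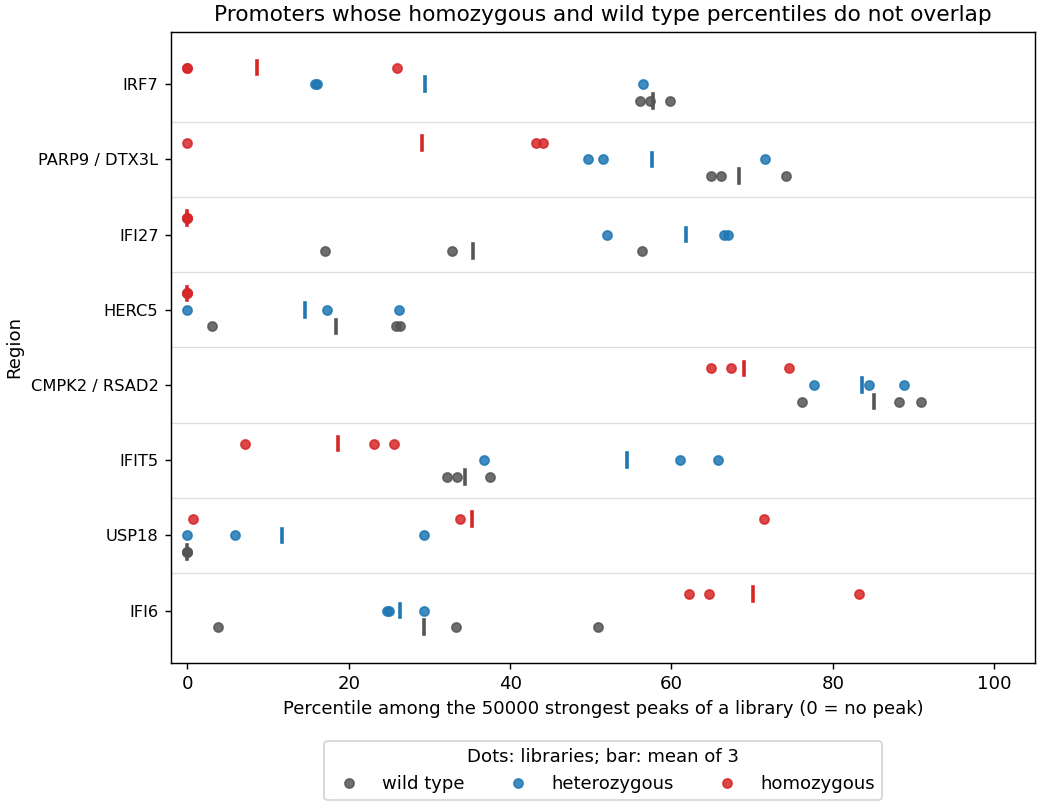
Promoter percentile (horizontal axis, 0 to 100) of the promoters whose homozygous and wild type values do not overlap, each row 1 site with a dot per library and a bar at the mean of 3. The red homozygous dots lie left of the grey wild type dots in the upper 6 rows and right of them for USP18 and IFI6, where the lowest USP18 dot, at 0.685, is next to the wild type zeros.

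**Figure D3:**
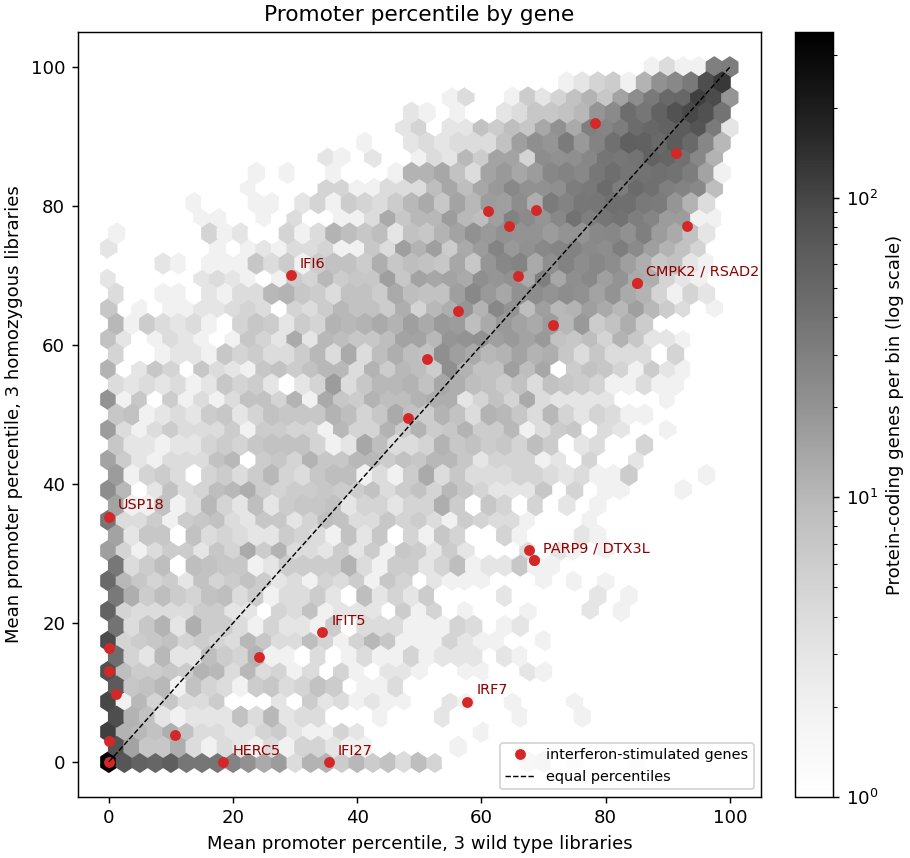
Mean promoter percentile in 3 wild type (horizontal) and 3 homozygous libraries (vertical) for 13755 protein-coding genes (grey hexagons, log scale of genes per bin) and the interferon-stimulated genes (red), with the line of equal percentiles. IRF7, IFI27 and PARP9 with DTX3L lie far under the line and IFI6 far above it, and other genes occupy the same places.

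The use of any annotated start mattered for 7 genes. With the Ensembl canonical start alone, a promoter peak was among the 50000 strongest of all 9 libraries for 12 genes (30%, against 42.5% of all genes), of some for 12 and of none for 16 (40%, against 34.6%). The ubiquitin-like modifier ISG15 is an example: its any-start peak at chr1:934871-936530 is centred -13177 bp from the canonical start, where a peak was among the strongest in 7 libraries. On this measure, 7 of 24 genes were lower in homozygous than in wild type cells (background 7.88%) and 3 were higher (14.2%), namely IFI6, USP18 and IRF1. At its canonical start, chr5:131825441-131827109, IRF1 had percentiles of 51.6, 44.3 and 61.6 in wild type. Heterozygous replicates had 69.8, 83.1 and 94.0 there, and homozygous replicates 61.9, 89.2 and 71.1. Both mutant lines lay above the wild type at this site, which made IRF1 the 1 gene of 24 higher in heterozygous than in wild type cells (background 5.17%), and 0 were lower (4.08%).

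The number of linked peaks differed little between genotypes. Linked peaks among the 50000 strongest numbered 62.3 ± 1.53 per wild type library for the 40 genes, 63 ± 2 per heterozygous and 58.3 ± 2.52 per homozygous library (SD, n = 3 each). The ranges were 61 to 64, 61 to 65 and 56 to 61, so that they touched at 61. In the full lists the numbers were 187 ± 31.2, 175 ± 23.8 and 187 ± 43.8. By gene, the adjusted exact permutation test over 18206 genes called 0 of 37 members and 0% of all genes, and unadjusted it gave USP18 alone (exact permutation p = 0.0429, against 7.95% of all genes). USP18 had 2, 2 and 1 linked peaks in wild type, 1, 1 and 1 in heterozygous and 3, 4 and 2 in homozygous replicates. The neighbours HERC5 and HERC6 had fewer in every homozygous library than in any wild type one, 2 of 37 genes against a background of 5.54%, and 0 of 37 had more (5.51%). For HERC5 the mean difference of -1.33 peaks reversed to 0.333 with either the 20000 or the 100000 strongest peaks. Against heterozygous cells, USP18 had more (5.33%) and STAT2 and CMPK2 fewer (5.66%), while heterozygous and wild type cells separated for 0 genes in either direction (1.01% and 1.1%). OAS2, XAF1 and CXCL10 had 0 linked peaks among the 50000 strongest of any library.

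Distal sites separated the homozygous libraries in both directions, and no gene passed the adjusted test. A distal peak was among the 50000 strongest of all 9 libraries for 8 genes (20%, against 30.1% of all genes), of some for 24 and of none for 8 (20%, against 25.5%). The adjusted exact permutation test over 14721 genes called 0 of 32 members and 0% of all genes, with a smallest adjusted p of 0.276. Unadjusted, IRF1 (p = 0.00714), ISG20 and SAMD9L (p = 0.025), RSAD2 (p = 0.0357) and IFI44 (p = 0.0393) had an exact permutation p under 0.05, 5 of 32 against 14.9% of all genes. In homozygous against wild type cells the strongest distal peak was higher for 3 of 32 genes (9.375%, against 11.2% of all genes). It was lower for 6 (18.75%, against 11.4%). Against heterozygous cells it was higher for 2 (6.25%, against 10.8%) and lower for 8 (25%, against 10.8%). Heterozygous cells were higher than wild type for HERC5 (3.125%, against 4.06%) and lower for IFI6 (3.125%, against 4.18%). Counted as regions, homozygous against wild type, 3 of 62 distal regions were higher (4.84%, against 6.43%) and 9 lower (14.5%, against 9.98%).

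The widest separation at a distal region was at a site linked to IRF1, the factor that drives basal expression of many interferon-stimulated genes. The region chr5:131773164-131774015 lies 52876 bp downstream of the canonical IRF1 start, in an intron of the antisense RNA gene IRF1-AS1 and of an overlapping protein-coding model. Its percentiles were 92.6, 93.3 and 92.4 in wild type, 93.9, 97.1 and 93.2 in heterozygous and 29.2, 38.5 and 27.5 in homozygous replicates. The 6 wild type and heterozygous libraries lay close together, and the homozygous ones lay far below while still holding the peak. The 200 bases at its midpoint, chr5:131773490-131773689 on the plus strand of GRCh37, are shown because this site has the widest gap of the distal regions, and neither ISRE, GAS nor AP-1 letters lie in the 500 bp around the midpoint, so it is all in lower case.
IRF1 distal: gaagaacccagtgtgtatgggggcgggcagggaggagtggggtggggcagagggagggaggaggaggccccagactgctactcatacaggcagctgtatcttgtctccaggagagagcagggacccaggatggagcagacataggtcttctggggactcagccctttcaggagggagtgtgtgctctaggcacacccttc

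A second IRF1 site, chr5:131802020-131802921, 23995 bp downstream of the start, was also lowest in the homozygous libraries. It had 78.0, 85.4 and 57.3 in wild type, 61.8, 60.8 and 73.1 in heterozygous and 35.4, 11.2 and 4.09 in homozygous replicates. The homozygous libraries were thus lower at both of these IRF1 sites and not at its canonical promoter.

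Other distal sites were lower in the homozygous line. In RSAD2, an intronic region at chr2:7027564-7028639 had 98.1, 92.6 and 99.6 in wild type, 99.5, 99.7 and 99.4 in heterozygous and 78.1, 90.1 and 53.3 in homozygous replicates. A second RSAD2 intron, chr2:7020218-7021670, had 96.7, 96.3 and 99.8 in wild type and 85.1, 78.2 and 73.4 in homozygous replicates. Its heterozygous values of 99.8, 78.8 and 93.8 overlapped those of both other genotypes. Both RSAD2 regions remained strong peaks. Downstream of ISG20, chr15:89200084-89201038 had 75.7, 64.5 and 46.3 in wild type, 44.8, 71.2 and 60.8 in heterozygous and 9.43, 0 and 29.2 in homozygous replicates. Upstream of IFI44L, a gene of unclear antiviral role, chr1:79083087-79083885 had 38.3, 29.3 and 75.8, then 72.5, 78.2 and 17.7, then 16.4, 0 and 0 in the same order. This site is centred -2647 bp from the IFI44L start and was 1 of the 6 distal regions with an ISRE match.

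Sites present in all 3 libraries of one genotype and in 0 of 3 of the other were few. Of 102 regions linked to these genes in homozygous or wild type cells, 5 were in wild type only (4.9%, against a background of 3.36%) and 0 in homozygous only (2.54%). Besides the promoters of IFI27 and HERC5, these were distal sites of IFITM2, CMPK2 and HERC6. IFITM2 is a membrane protein that blocks virus entry, and its site, chr11:297077-298200, had 72.3, 59.4 and 6.61 in wild type, 4.34, 52.3 and 36.6 in heterozygous and 0 in all homozygous replicates. This depended on the weakest peak used in each list: the site had a fold enrichment of 4.96 and a −log10 p of 6.6 in homozygous replicate 3, where the limit was 6.73, against 4.84 and 6.63 in wild type replicate 3, where it was 6.41. The CMPK2 site, chr2:6971315-6971849, lies in an intron of NRIR, a long noncoding RNA gene next to CMPK2. It had 45.6, 45.5 and 6.69, then 15.5, 51.6 and 68.1, then 0, 0 and 0. The HERC6 site, chr4:89363656-89364207, in an annotated exon of that gene, had 48.0, 13.1 and 17.4 in wild type, 25.5, 0 and 0 in heterozygous and 0 in all homozygous replicates. In the full lists, 2 of the 3 homozygous libraries held each of these 3 distal sites, at ranks under the 50000 strongest.

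Against heterozygous cells, 4 of 104 regions were in the heterozygous libraries only (background 3.2%) and 0 in the homozygous only (2.86%). They were the IFI27, IFITM2 and CMPK2 sites and a region near STAT2, chr12:56730288-56730850, in an intron of the cytokine gene IL23A. The last had 0, 0 and 30.8 in wild type, 14.6, 29.6 and 15.3 in heterozygous and 0 in all homozygous replicates, so wild type cells did not separate from either mutant there. Between heterozygous and wild type cells, 0 of 89 regions were in heterozygous only (0.359%) and 0 in wild type only (0.44%). Here too the count rests on the lists with shared intervals, since 4 regions separated without wild type replicate 3, 4 without heterozygous replicate 1 and 10 without both (9.09%, 5.42% and 15.4% of all regions). The full lists gave 7, a count that is not compared with all regions.

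Higher distal peaks in the homozygous line were found at IFI44, TRIM22 and BST2. The only distal peak of IFI44 among the 50000 strongest, in its intron at chr1:79126560-79127068, had 86.9, 84.4 and 96.2 in wild type, 93.8, 97.4 and 97.7 in heterozygous and 99.0, 99.7 and 99.1 in homozygous replicates. IFI44 had no promoter peak among the 50000 strongest. TRIM22, a ligase that restricts retroviruses, had an intronic region at chr11:5737301-5737812 with 3.56, 0 and 1.76 in wild type, 0, 47.8 and 0 in heterozygous and 69.5, 49.3 and 33.7 in homozygous replicates. BST2, which tethers budding virions to the cell surface, had 7.83, 0 and 0, then 15.1, 0 and 0, then 13.9, 19.7 and 37.1 at chr19:17513998-17515000, where 1 heterozygous value overlapped the homozygous ones. The IFI44 and TRIM22 regions held no ISRE match.

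**Figure D4:**
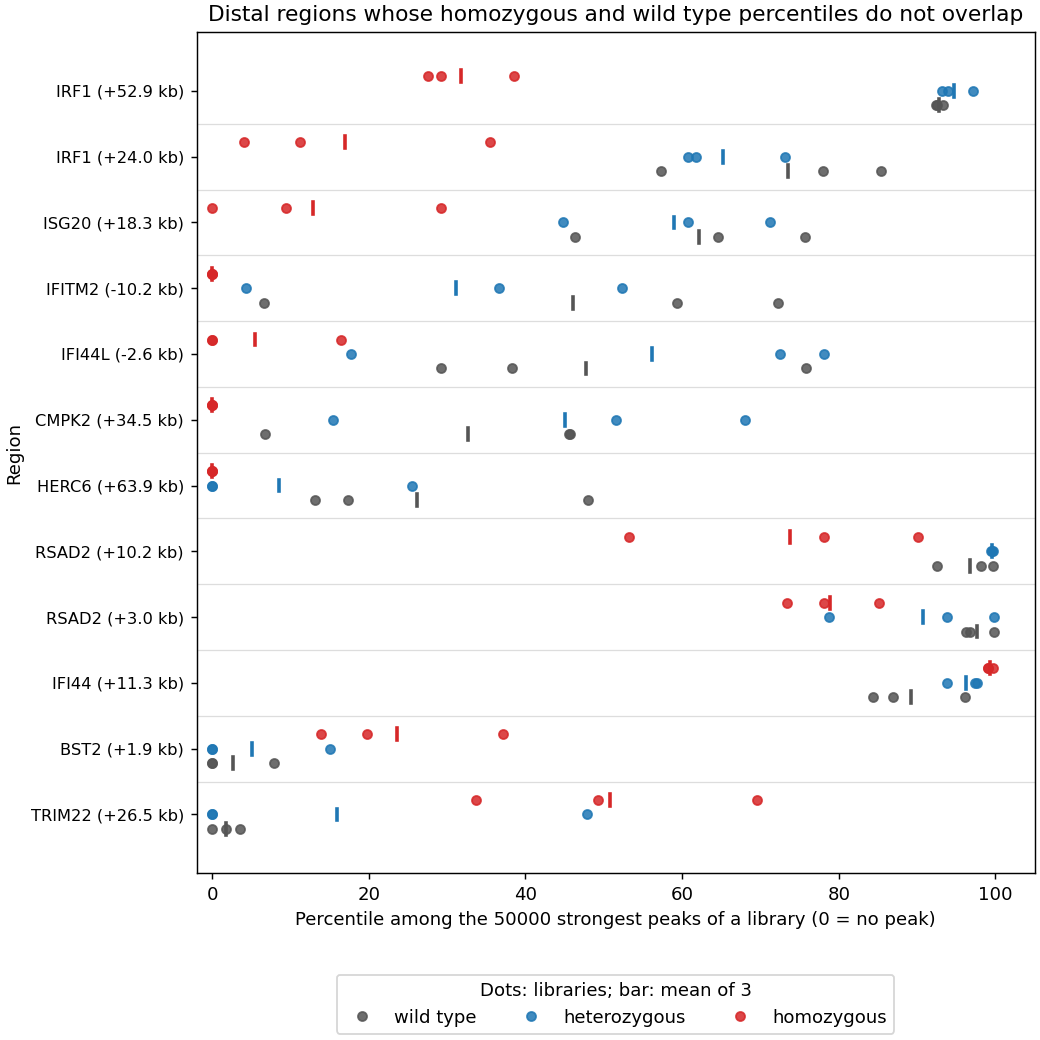
Percentile (horizontal axis, 0 to 100) of the distal regions whose homozygous and wild type values do not overlap, named by the nearest gene and the distance of their midpoint from its canonical start, with a dot per library and a bar at the mean of 3. Homozygous dots (red) lie left of wild type dots (grey) in 9 rows and right of them for IFI44, BST2 and TRIM22, and the IRF1 site in the top row has the widest gap.

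The other genes of the pathway were more often higher than lower in the homozygous line, as were all genes. Of 50 genes for receptors, kinases, sensors, antigen presentation and further interferon targets, 26 had a promoter peak in all 9 libraries, 15 in some and 9 in none. The adjusted exact permutation test called 0 of the 41 tested. Homozygous values all lay above wild type for 9 (22%), among them IFNAR2, JAK2, TYK2, MAVS, TAP1, PSMB9, B2M and APOBEC3G, and below for 4 (9.76%), IRF2, TBK1, IKBKE and STING1. Both shares were above the backgrounds of 14.4% and 7.95%, and the balance of the directions was near that of all genes. TAP1 and PSMB9 had the same percentile in several libraries, such as 91.7 in homozygous replicate 2, so the 9 higher genes are not all separate sites. B2M, the light chain of MHC class I, had 46.0, 46.4 and 61.5 in wild type, 72.4, 86.7 and 77.6 in heterozygous and 92.5, 94.0 and 96.9 in homozygous replicates. Its 3 genotypes were fully ordered, at the smallest possible exact permutation p of 0.00357 (adjusted p = 0.294). STING1, the adaptor of cytosolic DNA sensing, had 60.1, 63.6 and 56.4, then 67.7, 58.5 and 58.7, then 35.8, 0 and 38.2. Of the 17 type I interferon genes themselves, 0 had a promoter peak in any list, 16 had no linked peak among the 50000 strongest and 12 had none in any full list. They lie on the short arm of chromosome 9, part of which is known to be deleted in K562, so closed chromatin and absent DNA cannot be told apart there.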

How the data were processed

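Peaks were called per library by the authors; the submitters' processing notes name cutadapt, Bowtie2 2.2.9, Picard, MACS2 2.1.0 and the build hg19 (GRCh37), and give no settings. The lists, as deposited by the authors, hold a fold enrichment (a ratio), the −log10 of a p-value and of a q-value, a display score and summit offsets, a column of another kind. Between 17.2% and 19.2% of intervals were joined windows with averaged values. Columns were read as narrowPeak, since the lists have no header. Chromosomes 1 to 22 and X were used, with genes from GENCODE release 44 on GRCh37. Percentiles were computed among the 50000 peaks with the highest −log10 p, whose lowest value was 4.95 to 6.73. Peaks were merged into regions at 1 bp or more overlap. Per gene, 3 values (number of peaks, best promoter and best distal percentile) were tested by exact permutation of the sum of squares between genotypes, two-sided in effect, with 0.05 as threshold. The script was tested on simulated data: 79% of genes with a 3-fold higher number reached an unadjusted p under 0.05 and 0% an adjusted one. The 79% describes higher numbers of linked peaks only. It was not given for lower numbers, for percentiles or for genes with few linked peaks, as many members had. Pairs of genotypes were compared by non-overlap. Values in every library are given for members whose promoters or regions separate a pair, and for the 4 with the highest minimum. Same-numbered libraries of different genotypes did not deviate together (correlations -0.261 to 0.135 over genes). These correlations cannot exclude a pairing, since deviations from a mean of 3 are tied to each other. Wild type replicate 3 and heterozygous replicate 1, which share intervals, had 0.372. The labels do not say what a replicate number shares. Alternatives were other cuts, ranks, windows and left-out libraries. Members and lists were chosen with earlier results of these data known. Python 3.11.15, numpy 2.4.6 and pandas 2.3.3 were used. Reads were not analysed here, and a few items are not reported here.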

Additional observations from a re-analysis of the deposited data

How the results depend on the processing

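Under every alternative run, 0 members passed the adjusted test for peak number, promoter or distal percentile. This held also with the replicate block (0, 0 and 0), in which libraries were permuted within replicate numbers, whose meaning is unknown. The test could hardly call any gene, so the repeated 0 does not show stability. With all 9 libraries the smallest adjusted exact permutation p over all genes was 0.511, 0.294 and 0.276 for these measures. The block has only 36 assignments. Of the 10 promoters separated between homozygous and wild type, IFI6, PARP9 and DTX3L kept their call in 21 of 21 settings, and USP18 in 16. Many of these settings only left out libraries, which cannot undo a call of non-overlap. Only the settings that changed the peaks, ranks or start sites could lose one. The 10 became 5 with the 20000 strongest peaks and 6 with −log10 q of at least 5; homozygous against heterozygous, 7 became 3 with the 20000 strongest and 3 when ranked by fold. Heterozygous against wild type, 0 became 1 within chromosomes, 1 at canonical starts, 1 with ties kept and 17 without wild type replicate 3 and heterozygous replicate 1, the pair with shared intervals, when 46.8% of all genes separated 2 against 2. Regions in homozygous or wild type only, 5, became 8 with the 100000 strongest, 9 with full lists, 2 with the stricter q, 3 by fold and 3 within gene bodies. With lists that share intervals counted as 7 sources, 3 regions separated. That run set homozygous against wild type and heterozygous together, which is another comparison. Against heterozygous, 4 became 7 with the 100000 strongest, 10 with full lists and 1 within gene bodies; heterozygous against wild type, 0 became 2 with the 100000 strongest, 7 with full lists and 10 without the pair. Leaving out 1 library gave 10 to 14, 7 to 11 and 0 to 10 promoters and 5 to 10, 4 to 9 and 0 to 4 regions for these 3 pairs. The highest were without homozygous replicate 2 for regions (10 and 9), homozygous replicate 3 for promoters (11) and heterozygous replicate 1 (10 promoters, 4 regions) or wild type replicate 3 (9 and 4). Fewer libraries separate more easily for any gene. Heterozygous against wild type, 9.28% of all genes and 0.799% of all regions separated with no library left out. These became 27.1% and 5.42% without heterozygous replicate 1, and 31.1% and 9.09% without wild type replicate 3. Most other counts here stand without such shares and are not compared with all genes. The number of peaks at HERC5, homozygous minus wild type, was -1.33 and reversed to 0.333 with the 20000 and to 0.333 with the 100000 strongest. The causes were not tested. Read depth is unknown, so a peak missing from a list cannot be given a limit.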
